A study of Homo sapiens with 24 samples.

Results

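TXNIP and 4 genes of the arrestin domain-containing family, ARRDC1, ARRDC2, ARRDC3 and ARRDC4, were followed over EGF stimulation and 3 transfections in MCF10A cells. The members were fixed by name, and a probe set counted for a gene only where that gene was its sole symbol in the probe-to-gene table. Each of the 5 genes had 1 such probe set, so all 5 were measured, among 18417 genes on 19460 probe sets with 1 symbol.

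These proteins are alpha-arrestins. They carry the arrestin fold and, in most members, short PPxY motifs that bind the WW domains of NEDD4-family ubiquitin ligases, so that they bring ligases to membrane proteins. TXNIP, the thioredoxin-interacting protein, also binds reduced thioredoxin and restrains glucose uptake by taking glucose transporters from the cell surface. Its transcription is known to follow glucose through MondoA and MLX, and ARRDC4, its close relative, is driven by the same factors. ARRDC3 has been linked to the downregulation of the beta2-adrenergic receptor and of integrin beta4 in breast epithelial cells, and ARRDC1 to the budding of small vesicles at the plasma membrane.

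MCF10A is an established, non-tumorigenic human breast epithelial line whose growth depends on EGF. The 24 arrays formed 12 groups of 2 replicates, described by the labels as biological. Whether replicates, or the times of a transfection, came from separate transfections is unknown here. Averages over times may therefore not repeat the transfection as often as their arrays number. Oligofectamine was used to deliver a non-targeting siRNA (control), an siRNA oligonucleotide against hsa-miR-20a (si-miR-20a) or one against hsa-miR-671-5p (si-miR-671). Cells were then harvested 0, 30, 60 and 120 min after EGF was added. All groups shared the line, the transfection reagent and a growth medium that itself held EGF (10 ng/ml), 5% horse serum, insulin, cholera toxin and hydrocortisone, and every transfection had its own 0 min arrays. The stimulating EGF concentration, any starvation, the delay after transfection and cultures kept for the same time without EGF are unknown here, so time and EGF cannot be told apart. The levels of the mature miRNAs were not measured, and the efficacy of the oligonucleotides was not tested. Both oligonucleotide comparisons use the same 8 control arrays.

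The mature miRNAs at which the oligonucleotides were directed are shown because the transfections are named for them. Sequences are from RefSeq (GRCh38.p14), with the seed, bases 2 to 8, in capitals. The label names miR-20a without an arm, and the 5p arm is given.
hsa-miR-20a-5p: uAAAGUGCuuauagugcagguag
hsa-miR-671-5p: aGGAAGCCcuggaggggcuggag
hsa-miR-17-5p: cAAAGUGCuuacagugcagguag
The miR-20a-5p seed AAAGUGC is carried by 8 mature human miRNAs in that table, among them miR-17-5p, which is printed for comparison, miR-93-5p and miR-106b-5p. The miR-671-5p seed GGAAGCC is carried by 1. The transcripts' 3' ends were not searched for target sites here.

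The 250 bases before an annotated start (the upstream of 2 for TXNIP) are printed for TXNIP and ARRDC4, the pair whose averaged 120 min changes passed with opposite signs, and 30 bases for the downstream start of ARRDC3. Motifs were searched on both strands: an E-box (CACGTG), the CCAAT box bound by NF-Y, a forkhead motif (GTAAACA), an AP-1 motif (TGANTCA), and a paired E-box-like motif (2 copies of CACGNG with 5 bases between them), the layout of carbohydrate response elements, which was added after the sequences had been read. Capitals mark matches on either strand, and no matches in the printed sequences overlap.
TXNIP, chr1:145996580-145996829, minus strand: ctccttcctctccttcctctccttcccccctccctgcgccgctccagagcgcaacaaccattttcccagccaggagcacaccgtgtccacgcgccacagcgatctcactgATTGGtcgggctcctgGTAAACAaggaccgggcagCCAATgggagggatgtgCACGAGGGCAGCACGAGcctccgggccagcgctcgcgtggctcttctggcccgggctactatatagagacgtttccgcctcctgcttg
ARRDC4, chr15:97960453-97960702, plus strand: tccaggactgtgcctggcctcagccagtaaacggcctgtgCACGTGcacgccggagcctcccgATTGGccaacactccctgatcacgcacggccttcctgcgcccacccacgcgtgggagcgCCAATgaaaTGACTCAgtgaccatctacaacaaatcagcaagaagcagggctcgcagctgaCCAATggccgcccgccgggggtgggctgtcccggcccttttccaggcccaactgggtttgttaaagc
ARRDC3, chr5:91380108-91380137, minus strand: agcccggcactTGTTTACcacggcgcggcc
In TXNIP's window 2 CCAAT boxes began 140 and 105 bases before the start, a forkhead motif 124 bases and the paired E-box-like motif 88 bases before it. ARRDC4's window held 1 E-box, at 210 bases, 3 CCAAT boxes, at 187, 128 and 67 bases, and an AP-1 motif, at 119 bases. The window of TXNIP's second annotated start held 0 matches to the 5 motifs, and the window at that start is not printed. The stretch of ARRDC3 was cut around a forkhead motif 29 bases before the downstream start, so the match follows from the choice. The window of ARRDC3's upstream start held 0 forkhead matches. Over all 35116 windows of the same length, 6.34% held the E-box, 32.0% a CCAAT box, 2.98% the forkhead motif, 6.57% the AP-1 motif and 0.0456%, or 16 windows, the paired motif. Because the paired motif was added after TXNIP's window had been read, its match there and its rarity are no test. ARRDC4's window held 0 matches to it. A match describes letters in a window and is neither a bound site nor a cause of a change.

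**Figure D1:**
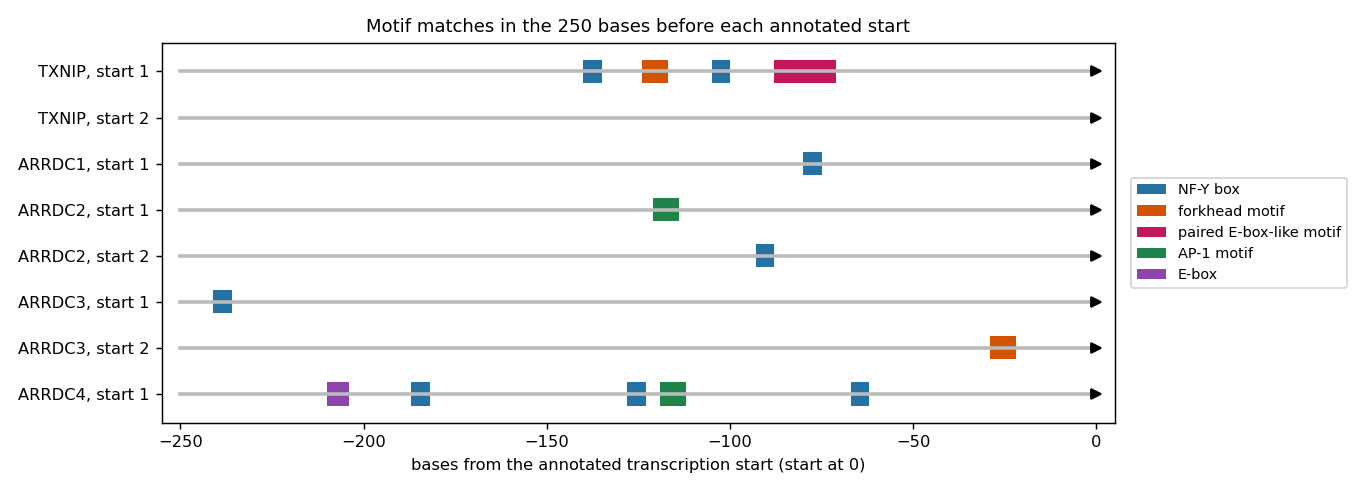
Motif matches in the 250 bases before each of the 8 annotated starts of the 5 genes. The x axis is the distance in bases from the start (arrowhead), each row is 1 start and each coloured block 1 match; TXNIP's start 1 holds 4 matches, its start 2 holds 0 and ARRDC4's start holds 5.

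The deposited arrays had nearly equal distributions, with medians from 6.56 to 6.57 log2, and the 2 replicates of a group correlated at 0.973 to 0.992 over all probe sets. The basal epithelial markers KRT5 (median 12.7) and KRT14 (11.9) were among the highest probe sets in all 24 arrays, while PTPRC (median 4.34), a blood cell marker, and PGR (4.85), a luminal marker, were low; KRT17 and TP63 were not analysed here. Of the other luminal markers, ESR1 (6.60) lay near the array medians and GATA3 (7.25) above them. COL1A1 (7.55), a fibroblast marker, and CDH2 (8.47), a mesenchymal marker, also lay above them. Further mesenchymal and fibroblast markers, COL1A2 (6.10) and PDGFRB (5.90), lay below, as did CD3E (5.98), a T cell marker. Their part in the results was not tested. The si-miR-671 arrays differed from control at 105 and 89 probe sets at 0 and 30 min and at 1592 and 1086 at 60 and 120 min, where the counts for si-miR-20a were 646, 992, 1205 and 1958. For the 5 genes, called EGF averages are therefore also given without the si-miR-671 arrays in the fit, and called averages of si-miR-671 against control also over 0 and 30 min alone. RNA came from whole cultures, so fewer expressing cells and less RNA per cell cannot be told apart. With 2 arrays a group, a comparison at a single time leans on the spread pooled over all groups, and p-values measure the spread between these arrays only.

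All values below are log2 levels or log2 differences, and levels of different genes are not compared, since each probe set has its own response. A difference is given with its standard error from the limma fit, and a call means a Benjamini-Hochberg adjusted p under 0.05 over all 19460 probe sets. Where arrays of groups are said not to overlap, the share of all probe sets with the same separation was not counted. With so few arrays a group, such a separation can arise without a difference. Over the 12 groups, mean TXNIP spanned 1.83 log2, or 3.56-fold, ARRDC3 1.09 (2.13-fold), ARRDC4 0.59 (1.51-fold), ARRDC2 0.43 (1.35-fold) and ARRDC1 0.34 (1.27-fold).

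**Figure D2:**
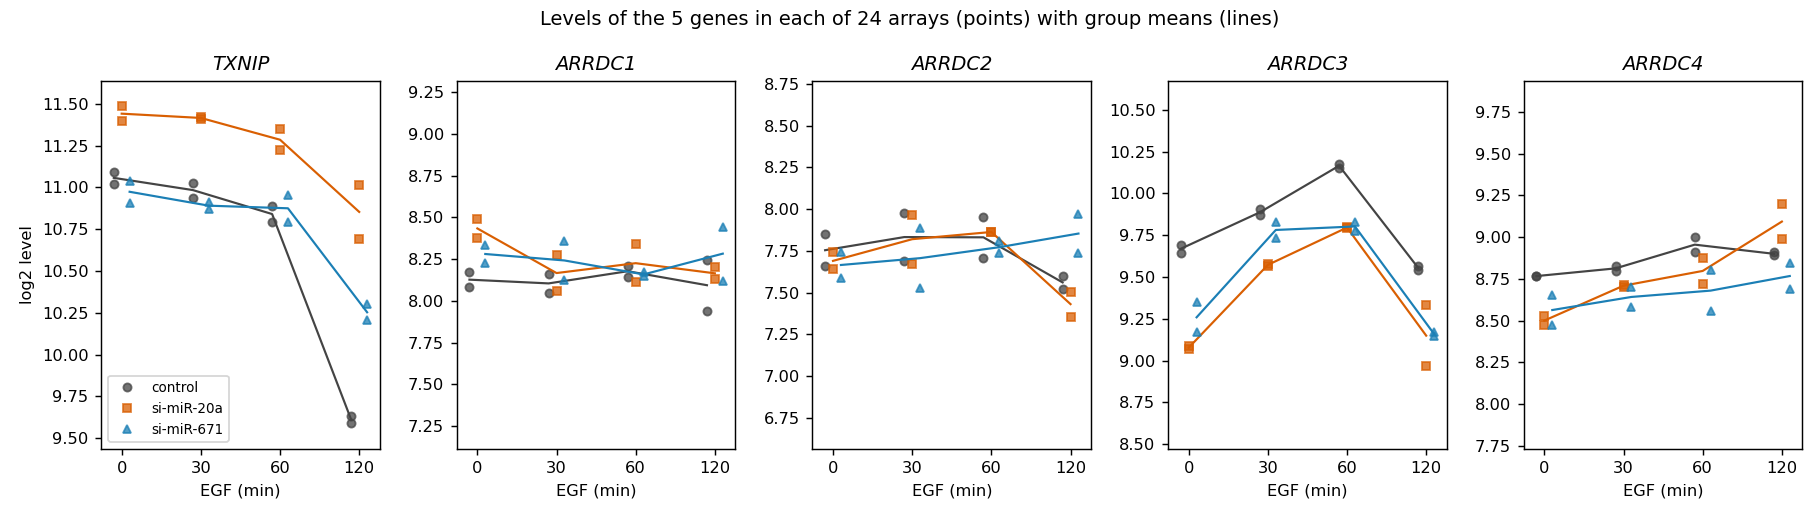
Log2 level of each gene (y axis, the same span in every panel) over minutes of EGF (x axis, categories) in the 24 arrays; points are single arrays and lines join the means of 2. TXNIP lies lowest in control at 120 min, ARRDC3 peaks at 60 min in control and si-miR-20a and is lowest in si-miR-20a at 0 min, and ARRDC1 and ARRDC2 show small and overlapping ranges.

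TXNIP fell late after EGF in all 3 transfections. In control its 2 arrays stood at 11.02 and 11.09 at 0 min, at 10.94 and 11.03 at 30 min, at 10.89 and 10.79 at 60 min and at 9.59 and 9.63 at 120 min. The 120 min arrays lay far below all others of the control, and the 60 min arrays lay just below those of 0 min. In si-miR-20a the arrays stood at 11.40 and 11.48, then at 11.42 and 11.41, then at 11.22 and 11.35, and at 120 min at 10.69 and 11.01, the widest gap between replicates that TXNIP showed. In si-miR-671 they stood at 10.91 and 11.04, then at 10.87 and 10.91, then at 10.79 and 10.96, and at 120 min at 10.21 and 10.30. In each transfection both 120 min arrays were below every earlier array of that transfection, and the levels of 0 and 30 min overlapped.

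Averaged over the 3 transfections, TXNIP was lower at 120 than at 0 min by 0.92 ± 0.06 (6 against 6 arrays; adjusted p = 3.5e-08), a 1.89-fold difference and rank 25 from the lowest of all probe sets. In that comparison 2 of the 5 genes passed, 1 higher and 1 lower, against 13.4% of all probe sets. The exact permutation test over arrays, stratified by transfection and two-sided, gave p = 0.0093, the smallest it can give. Most of the fall came after 60 min, since 120 against 60 min gave -0.76 ± 0.06 (adjusted p = 7.8e-07), where 2 of 5 genes passed against 4.92% of all. At 60 min the difference from 0 min was -0.16 ± 0.06 (adjusted p = 0.25) and at 30 min -0.06 ± 0.06 (adjusted p = 1). Without the si-miR-671 arrays in the fit, the 120 min difference was -1.02 (adjusted p = 1.7e-05) and that of 120 against 60 min -0.83 (0.00016).

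The estimates of the late fall were not the same in the 3 transfections. In control TXNIP fell by 1.45 ± 0.10 (adjusted p = 4.5e-07), or 2.73-fold, rank 8 from the lowest, where TXNIP alone of the 5 passed against 2.96% of probe sets. In si-miR-20a it fell by 0.59 ± 0.10 (adjusted p = 0.0023), where 2 of 5 passed against 7.64%, and in si-miR-671 by 0.72 ± 0.10 (adjusted p = 0.00042), where 1 of 5 passed against 5.95%. The difference between these responses was tested itself. It was 0.86 ± 0.14 for si-miR-20a minus control (95% interval 0.55 to 1.17, unadjusted p = 2.68e-05, adjusted p = 0.063) and 0.73 ± 0.14 for si-miR-671 minus control (0.42 to 1.03, unadjusted p = 0.000147, adjusted p = 0.13). Neither passed; only 0.036% and 0.0668% of all probe sets did, 7 and 13 of them. A moderated F over the 3 times gave adjusted p = 0.12 for si-miR-20a and 0.13 for si-miR-671, with 0.0154% and 0.0514% of probe sets called. The call depends on the setting. The si-miR-20a difference passed without the dimmest 25% of probe sets (adjusted p = 0.03), with a trended and robust prior (0.0063), with the replicate number as a block (0.027), and without replicate 1 of si-miR-20a at 120 min, where it was 1.02 (0.0064); the si-miR-671 difference passed with the trended prior (0.016) and with the block (0.041).

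TXNIP was higher in si-miR-20a than in control. Averaged over the 4 times the difference was 0.63 ± 0.05 (8 against 8 arrays; adjusted p = 5.3e-07), or 1.54-fold, and both si-miR-20a arrays lay above both control arrays at each of the 4 times. An exact permutation of the labels within each time gave p = 0.0015, the least possible. That value follows from the separation at each time and adds nothing to it. Here 2 of the 5 genes passed, against 24.5% of all probe sets, a broad background. At 0 min the difference was 0.38 ± 0.10 (adjusted p = 0.053; it passed under 4 of 9 other settings, at 0.013 to 0.05), at 30 min 0.43 ± 0.10 (0.023), at 60 min 0.44 ± 0.10 (0.017) and at 120 min 1.24 ± 0.10 (8.4e-06). The 30 min call was lost without any 1 of its 4 arrays (adjusted p 0.075 to 0.19), and the 60 min call without either control array or without si-miR-20a replicate 2 (0.062 to 0.16). At 120 min TXNIP ranked 17 from the highest of all probe sets, and leaving out 1 array left the difference between 1.08 and 1.40.

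In si-miR-671 TXNIP stood close to control until 60 min and above it at 120 min. The differences were -0.08, -0.09 and 0.03 at 0, 30 and 60 min, none of them past the threshold (adjusted p 1, 0.89 and 0.87), and 0.64 ± 0.10 at 120 min (adjusted p = 0.0016). Averaged over times the difference was 0.13 ± 0.05 (adjusted p = 0.13), and over 60 and 120 min alone it was 0.34 (adjusted p = 0.0046). Set directly against si-miR-671, si-miR-20a had 0.50 ± 0.05 more TXNIP (adjusted p = 6.3e-05), 1 of 5 genes called against 4.54% of probe sets.

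In order of level, the 3 highest TXNIP groups were si-miR-20a at 0 min (11.44 ± 0.06, SD, n = 2), 30 min (11.42 ± 0.01) and 60 min (11.29 ± 0.09). The middle of the order, from control at 0 min (11.06 ± 0.05) down to control at 60 min (10.84 ± 0.07), held 7 groups whose neighbours overlapped. Below them, si-miR-671 at 120 min (10.25 ± 0.07) and control at 120 min (9.61 ± 0.03) each stood apart from the group above. In all, 4 of 11 neighbouring pairs did not overlap.

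ARRDC4, the closest relative of TXNIP in this set, rose at 120 min on average over the transfections. In control its arrays stood at 8.77 and 8.77 at 0 min, 8.80 and 8.83 at 30 min, 8.91 and 9.0 at 60 min and 8.89 and 8.91 at 120 min, so that all later arrays lay above those of 0 min, by a small step. In si-miR-20a they stood at 8.47 and 8.53, then 8.70 and 8.71, then 8.72 and 8.88, and at 120 min at 8.99 and 9.20, the highest of all 24 arrays being 1 of these. In si-miR-671 they stood at 8.48 and 8.65, then 8.58 and 8.70, then 8.56 and 8.80, and at 120 min at 8.69 and 8.84, where the 30 and 60 min arrays overlapped those of 0 min.

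Averaged over transfections, ARRDC4 rose by 0.31 ± 0.06 at 120 min (adjusted p = 0.0024), or 1.24-fold, and the exact permutation test gave p = 0.0093, the smallest it can give. At 60 min the difference was 0.20 ± 0.06 (adjusted p = 0.11) and passed with the replicate number as a block (0.029); at 30 min it was 0.11 ± 0.06 (adjusted p = 0.94). Within transfections the 120 min change passed in si-miR-20a (0.59 ± 0.10, adjusted p = 0.0024) and not in control (0.13 ± 0.10, 0.73) or si-miR-671 (0.20 ± 0.10, 0.28). The difference of the si-miR-20a response from the control response was 0.46 ± 0.14 (95% interval 0.15 to 0.77, unadjusted p = 0.00657, adjusted p = 0.5) and did not pass. Without the si-miR-671 arrays the averaged change was 0.36 (adjusted p = 0.008) at 120 min and 0.24 (0.14) at 60 min.

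Across transfections ARRDC4 was lower in si-miR-671 than in control, by 0.20 ± 0.05 averaged over times (adjusted p = 0.018). Both arrays lay below both control arrays at each time, which alone fixes the exact permutation p at 0.0015. In this comparison 2 of 5 genes passed, both lower, against 14.5% of all probe sets. The call is narrow. It was lost without replicate 1 of si-miR-671 at 0 min (-0.17, adjusted p = 0.053) and only just kept without replicate 1 of si-miR-671 at 60 min (-0.16, 0.05 after rounding). It was also lost over 0 and 30 min alone (-0.19, 0.25) and over 60 and 120 min alone (-0.20, 0.073). Against control, si-miR-20a differed by -0.08 ± 0.05 on average (95% interval -0.19 to 0.03, adjusted p = 0.28), as its arrays lay below control at 0, 30 and 60 min and above it at 120 min.

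ARRDC3 rose early after EGF and was back near its starting level at 120 min. In control its arrays stood at 9.65 and 9.69 at 0 min, 9.87 and 9.90 at 30 min, 10.15 and 10.18 at 60 min and 9.57 and 9.54 at 120 min. The replicates differed by at most 0.045 and the 4 times did not overlap. In si-miR-20a they stood at 9.08 and 9.07, then 9.58 and 9.57, then 9.79 and 9.80, and at 120 min at 8.97 and 9.33, 1 array below and 1 above those of 0 min. In si-miR-671 they stood at 9.17 and 9.35, then 9.83 and 9.73, then 9.78 and 9.83, and at 120 min at 9.15 and 9.17. In all 3 transfections the 30 and 60 min arrays lay above those of 0 and 120 min.

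Averaged over transfections, ARRDC3 rose by 0.41 ± 0.06 at 30 min (adjusted p = 0.00065), or 1.33-fold, as the single member called, against 0.766% of probe sets. At 60 min the rise was 0.59 ± 0.06 (adjusted p = 7.3e-06), or 1.5-fold, again 1 of 5 against 2.66%. For each of these 2 times the exact permutation test gave p = 0.0093, the smallest it can give. From 60 to 120 min it fell by 0.63 ± 0.06 (adjusted p = 3.3e-06), and at 120 min it differed from 0 min by -0.05 ± 0.06 (95% interval -0.17 to 0.07, adjusted p = 0.67). With control and si-miR-20a averaged alone, the 30 min rise was 0.36 (adjusted p = 0.026), and with the si-miR-671 arrays also out of the fit it did not pass (0.13). In that smaller fit the 60 min rise was 0.61 (adjusted p = 0.0014) and the difference of 120 from 60 min -0.63 (0.00088).

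Within transfections, the 60 min rise of ARRDC3 was 0.50 ± 0.10 in control (adjusted p = 0.022), 0.72 ± 0.10 in si-miR-20a (6e-04) and 0.54 ± 0.10 in si-miR-671 (0.007). ARRDC3 was the only one of the 5 genes called in each, against 0.791%, 0.971% and 2.06% of probe sets. The control call was lost without any 1 of its 4 arrays (adjusted p 0.13 to 0.21), and the si-miR-671 call without replicate 1 at 0 min (0.12) or replicate 2 at 60 min (0.097). At 30 min the differences were 0.22 ± 0.10 in control (adjusted p = 1), where 0 of the 5 passed the limma test (1 at an unadjusted p under 0.05) against 0.334% of probe sets, 0.50 ± 0.10 in si-miR-20a (0.044), 1 of 5 against 0.391%, and 0.52 ± 0.10 in si-miR-671 (0.018), 1 of 5 against 0.581%. The si-miR-20a call at 30 min was lost without any 1 of its 4 arrays (0.22 to 0.33), and the si-miR-671 call without replicate 1 at 0 min (0.29) or replicate 1 at 30 min (0.31). The 30 min response in si-miR-671 exceeded that in control by 0.30 ± 0.14 (95% interval 0.01 to 0.60, unadjusted p = 0.0434, adjusted p = 1), and the difference did not pass.

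**Figure D3:**
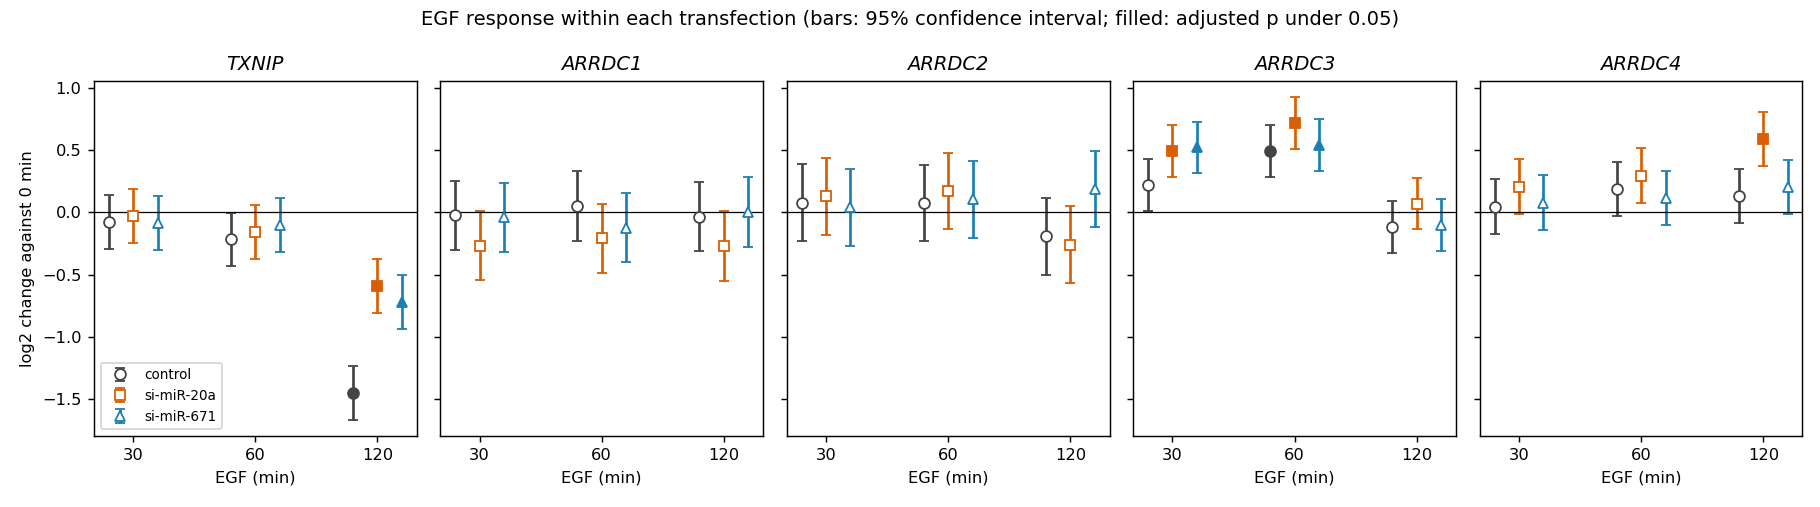
Log2 change against 0 min (y axis) at 30, 60 and 120 min of EGF (x axis) within each transfection, 2 against 2 arrays; bars are 95% confidence intervals and filled symbols have an adjusted p under 0.05. TXNIP is called at 120 min in all 3 transfections, from -1.45 in control to -0.59 in si-miR-20a, and ARRDC3 at 60 min in all 3.

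ARRDC3 was lower than in control after both oligonucleotides. Averaged over times, ARRDC3 was lower by 0.42 ± 0.05 in si-miR-20a (adjusted p = 1.7e-05), or 1.34-fold, and by 0.32 ± 0.05 in si-miR-671 (adjusted p = 0.00036), or 1.25-fold. In both comparisons, which share the control arrays, the 2 transfected arrays lay below the 2 control arrays at each of the 4 times. That separation alone fixes the exact permutation p at 0.0015, the smallest it can give. The 2 transfections differed from each other by -0.10 ± 0.05 (si-miR-20a minus si-miR-671, 95% interval -0.21 to 0.00, adjusted p = 0.29), and the difference passed only without replicate 2 of si-miR-20a at 120 min (-0.15, adjusted p = 0.042). Over 0 and 30 min alone, the si-miR-671 difference was -0.26 (adjusted p = 0.063).

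At single times the difference of si-miR-20a from control was -0.59 ± 0.10 at 0 min (adjusted p = 0.003), -0.31 ± 0.10 at 30 min (0.081), -0.37 ± 0.10 at 60 min (0.036) and -0.40 ± 0.10 at 120 min (0.017). Of the 5 genes 1 was called at 0 min and 1, TXNIP, at 30 min, and 2 were called at 60 and at 120 min, against 3.32%, 5.1%, 6.19% and 10.1% of probe sets. The 30 min difference of ARRDC3 passed with array weights (adjusted p = 0.031), with the trended prior (0.037) and, at 0.05 after rounding, without the dimmest 25% of probe sets. The 60 min call of ARRDC3 was lost without any 1 of its 4 arrays (adjusted p 0.14 to 0.19). The 120 min call was lost without either control array (0.089 and 0.056) and without si-miR-20a replicate 1, where the difference shrank to -0.22 (0.098). For si-miR-671 the differences were -0.41 ± 0.10 at 0 min (adjusted p = 0.083), -0.11 ± 0.10 at 30 min (0.87), -0.36 ± 0.10 at 60 min (0.033) and -0.40 ± 0.10 at 120 min (0.027). The 0 min difference passed with array weights (0.0072), without the dimmest 25% (0.049) and with the trended prior (0.028). By limma, 0 of the 5 genes were called at 0 or 30 min (1 and 0 at an unadjusted p under 0.05), 1 at 60 min and 2 at 120 min, against 0.54%, 0.457%, 8.18% and 5.58%. Both late ARRDC3 calls were lost without any 1 of their 4 arrays (0.12 to 0.17 at 60 min and 0.086 to 0.12 at 120 min).

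**Figure D4:**
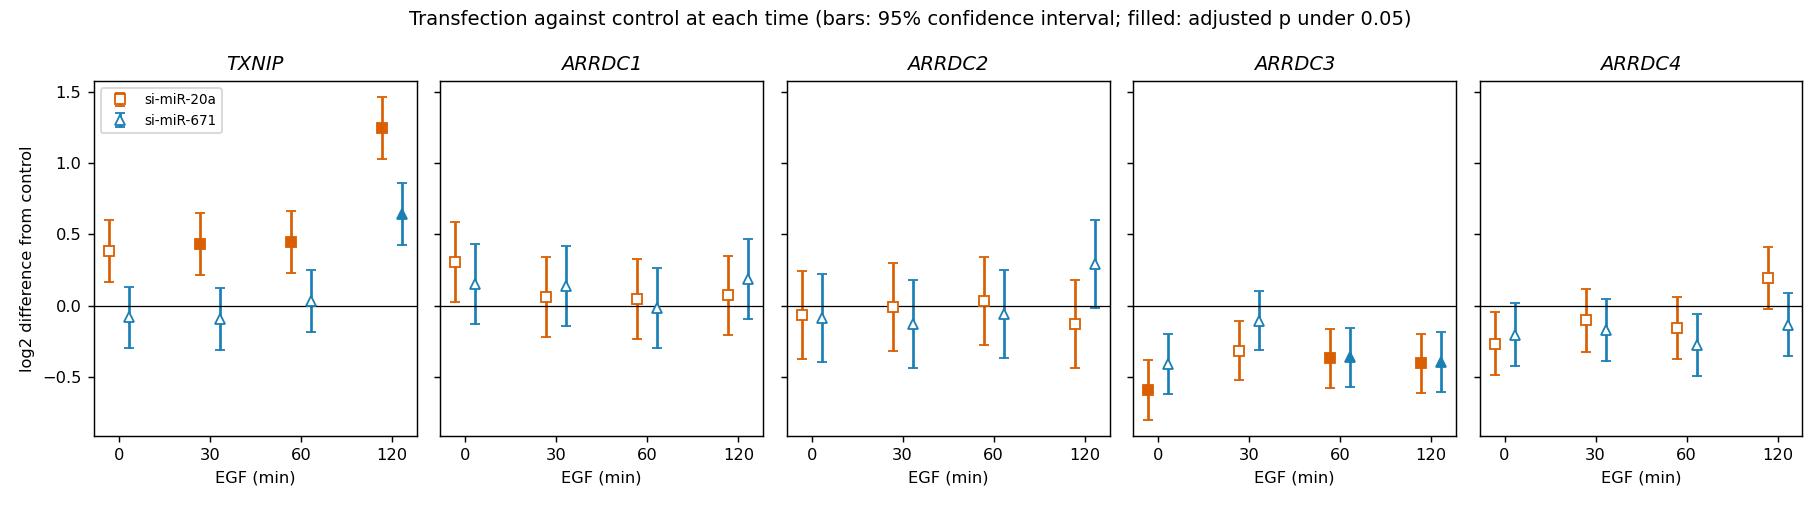
Log2 difference from control (y axis) at each time of EGF (x axis, min) for si-miR-20a and si-miR-671, 2 against 2 arrays; bars are 95% confidence intervals and filled symbols have an adjusted p under 0.05. TXNIP in si-miR-20a lies above 0 at all 4 times and reaches 1.24 at 120 min, and ARRDC3 lies below 0 for both oligonucleotides.

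The order of the ARRDC3 groups ran from control at 60 min (10.17 ± 0.02, SD, n = 2) and control at 30 min (9.89 ± 0.02) down to si-miR-20a at 0 min (9.08 ± 0.01), with 6 of 11 neighbouring pairs apart. The 4 lowest groups were the 0 and 120 min groups of both oligonucleotides, and their neighbours overlapped. For ARRDC4, si-miR-20a held both ends, at 120 min (9.09 ± 0.15) and at 0 min (8.50 ± 0.04), and 3 neighbouring pairs were apart.

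ARRDC1 and ARRDC2 passed in none of the 31 limma comparisons, and each had an unadjusted p under 0.05 in 1 of them. ARRDC1 ranged from 7.94 to 8.49 over the 24 arrays and ARRDC2 from 7.36 to 7.98, and of their neighbouring groups 0 and 1 pairs were apart. The 120 min EGF difference averaged over transfections was -0.10 ± 0.08 for ARRDC1 (95% interval -0.26 to 0.06, adjusted p = 0.46) and -0.09 ± 0.08 for ARRDC2 (-0.27 to 0.09, adjusted p = 0.58). Against control, ARRDC1 differed by 0.12 ± 0.07 in si-miR-20a (95% interval -0.02 to 0.26) and by 0.12 ± 0.07 in si-miR-671 (-0.02 to 0.25), and ARRDC2 by -0.04 ± 0.07 (-0.20 to 0.11) and 0.00 ± 0.07 (-0.15 to 0.16). The antisense neighbour of ARRDC1, ARRDC1-AS1, has a probe set of its own and fell by 0.55 ± 0.10 at 120 min averaged over transfections (adjusted p = 0.0019). It was looked at for its name, and whether its probes and those of ARRDC1 share sequence was not tested.

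**Figure D5:**
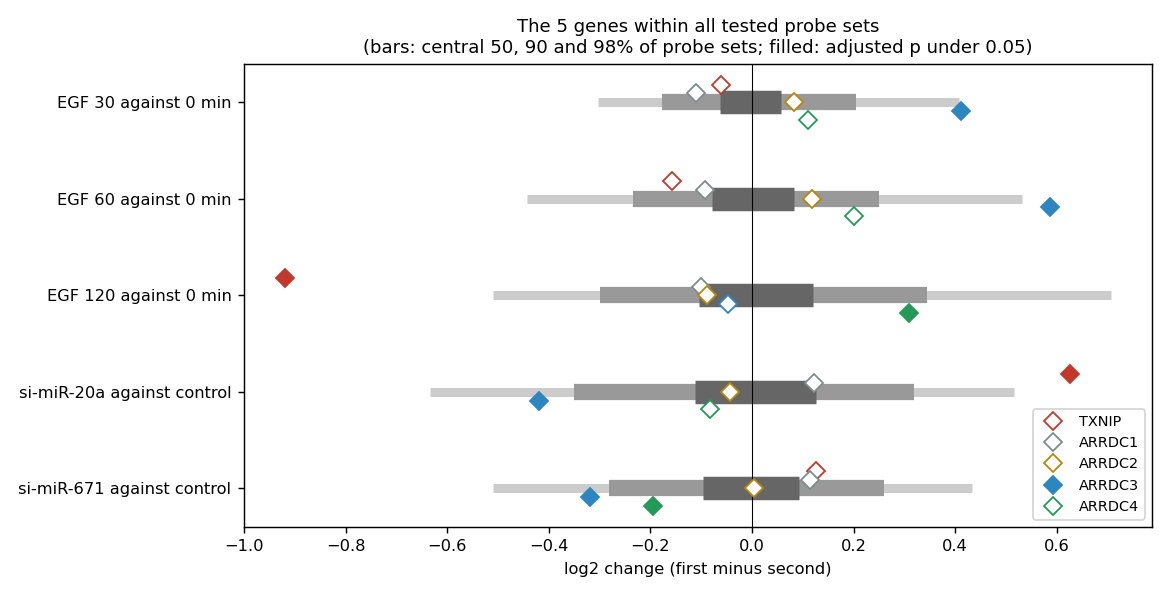
The 5 genes (diamonds; filled, adjusted p under 0.05) within the log2 changes of all 19460 probe sets in 5 averaged comparisons (rows); the x axis is the log2 difference and nested grey bars hold the central 50, 90 and 98% of probe sets. TXNIP lies outside the widest bar at 120 min of EGF (-0.92) and in si-miR-20a (0.63), and ARRDC3 outside it at 60 min (0.59) and just outside it at 30 min (0.41).

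As a set the 5 genes had no common direction. Their median change at 120 min was -0.09 (all probe sets 0.01), at 60 min 0.12 (all 0.00), in si-miR-20a -0.04 (all 0.01) and in si-miR-671 0.00 (all 0.00). Over the 12 group means, which share arrays and time courses, Pearson's r was 0.05 between TXNIP and ARRDC3 and -0.40 between TXNIP and ARRDC4, given as descriptions.

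The genes whose 12 group means were most like each member's were taken from 9321 probe sets above the median level. For TXNIP they were TIA1, an RNA-binding protein of stress granules (r = 0.92), TANC2, CTBP1-DT, DYNC2H1 and CPLANE1 (0.89), all with narrower ranges than TXNIP, 0.35 to 0.69 log2. For ARRDC3 they were C1orf74 (0.96), TOB1, an antiproliferative protein (0.93), TPM1, PRICKLE1 and DDIT3, a stress-induced transcription factor (0.90). C1orf74 rose by 0.44 ± 0.06 at 60 min (adjusted p = 0.00018) and was lower by 0.23 ± 0.05 in si-miR-20a (0.0027). For ARRDC4 they were WSB1 (0.96), STARD4, BDKRB1, ITGB1 and SERINC3 (0.94). STARD4, which carries cholesterol, rose by 0.23 ± 0.05 at 120 min (adjusted p = 0.0066). For ARRDC2 they were CYB5D2 (0.94), MOV10, PLXNB3, RAD9A and YJU2B (0.87), and for ARRDC1 ESRP2 (0.84), ADAP1, CS, RARG and RAET1G (0.79). These are the highest of many candidates over 12 means, and no p is given for the correlations. The genes were picked for likeness in the same arrays, so the adjusted p-values of C1orf74 and STARD4 are no independent evidence.

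Genes that work with or beside TXNIP were read from 6 lists, and their counts stand against the same shares of all probe sets as above. Of the partners of TXNIP in the thioredoxin system, 15 were measured. Of these, 2 rose and 1 fell at 120 min, against 13.4% of all probe sets in either direction (list median -0.06, all probe sets 0.01). TXNRD1, the cytosolic thioredoxin reductase, rose by 0.73 ± 0.05 (adjusted p = 5e-08), having already risen by 0.41 ± 0.05 at 60 min, and SRXN1, which repairs peroxiredoxins, rose by 0.29 ± 0.06 (0.0032). TXNRD1 was also higher in si-miR-20a, by 0.42 ± 0.04 (adjusted p = 4e-06), and in si-miR-671, by 0.36 ± 0.04 (2.7e-05). In those comparisons 2 genes were higher and 3 lower for si-miR-20a (24.5% of all probe sets called), and 2 higher and 1 lower for si-miR-671 (14.5%), with GLRX2 higher and GLRX lower in each.

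MondoA and MLX, known to drive TXNIP and ARRDC4, belong to the MondoA, MLX and MYC network of factors. Whether factors of this network acted on either gene here was not tested. Of 13 measured, 3 rose and 1 fell at 120 min, against 13.4% of all probe sets (list median 0.05, all probe sets 0.01). MXD1, which competes with MYC for MAX, rose by 0.47 ± 0.04 at 30 min, 0.99 ± 0.04 at 60 min and 1.16 ± 0.04 at 120 min (adjusted p = 6.5e-11 at 120 min). MYC rose by 0.37 ± 0.05 at 60 min (adjusted p = 0.00056) and 0.58 ± 0.05 at 120 min (2.4e-06), MNT, a repressor that pairs with MAX, by 0.60 ± 0.06 at 120 min (1e-05), while MXD4 fell by 0.39 ± 0.08 (0.0055). MLXIP, the gene of MondoA, was higher in si-miR-20a by 0.27 ± 0.08 (adjusted p = 0.019), where 3 genes of the list were higher and 2 lower, against 24.5% of all probe sets. In si-miR-671 MXI1 (-0.30 ± 0.06) and MXD4 (-0.31 ± 0.07) were lower, 2 of 13 against 14.5%.

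Among 19 genes of glucose uptake and early glycolysis, 2 rose and 1 fell at 120 min, against 13.4% of all probe sets (list median 0.00, all probe sets 0.01). SLC2A3, the glucose transporter GLUT3, rose by 0.35 ± 0.07 at 30 min, 1.19 ± 0.07 at 60 min and 2.13 ± 0.07 at 120 min (adjusted p = 2.3e-11 at 120 min), and HK2, which phosphorylates glucose, rose by 0.42 ± 0.07 (0.00068). SLC2A1, the transporter GLUT1, was higher in si-miR-20a by 0.22 ± 0.04 (adjusted p = 0.00037), as was PFKP, a phosphofructokinase, by 0.46 ± 0.04 (1e-06). In that comparison 5 genes of the list were higher and 2 lower, against 24.5% of all probe sets, and in si-miR-671 3 and 2, against 14.5%, with SLC2A12 the lowest in each (-0.60 ± 0.05 and -0.65 ± 0.05).

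Of the 12 NEDD4-family ligases and adaptors, the partners of PPxY motifs, 4 rose at 120 min and 8 did not pass, against 13.4% of all probe sets called. Those that rose were ITCH (0.48 ± 0.06), SMURF1 (0.45 ± 0.06), SMURF2 (0.42 ± 0.07) and NEDD4L (0.37 ± 0.05), with adjusted p from 4.4e-05 to 0.00042. NDFIP2, an adaptor that recruits these ligases, was higher in si-miR-20a (0.36 ± 0.05, adjusted p = 0.00016) and in si-miR-671 (0.19 ± 0.05, 0.025), and WWP1 was lower in each (-0.23 ± 0.04 and -0.17 ± 0.04). In si-miR-20a 2 of the 12 were higher and 1 lower, against 24.5% of all probe sets called. In si-miR-671 1 was higher and 2 lower, against 14.5%.

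TXNIP is also reported as a target of FOXO factors. Of 19 measured FOXO genes and reported targets, 4 rose and 8 fell at 120 min, against 13.4% of all probe sets (list median -0.09, all probe sets 0.01). PIK3IP1, an inhibitor of PI3-kinase, fell by 1.59 ± 0.07 (adjusted p = 4.6e-10), TSC22D3 by 1.08 ± 0.09 (5.1e-07) and SESN1, a stress-response gene, by 0.88 ± 0.07 (7.6e-07), while TRIB1, a pseudokinase, rose by 1.83 ± 0.08 (6.8e-10). TXNIP, which is not counted in the list, differed by -0.92. The list was chosen with earlier results of these data known, and a part of FOXO factors in the TXNIP change was not tested. In si-miR-20a 1 gene of the list, SESN3 (0.85 ± 0.05), was higher and 8 were lower, among them SESN1 (-0.80 ± 0.06), against 24.5% of all probe sets. In si-miR-671 1 was higher, SESN3 again (0.63 ± 0.05), and 9 were lower, against 14.5%. Over 0 and 30 min alone, which uses fewer arrays, 1 gene of the list was higher and 1 lower in si-miR-671.

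Outside the 5 genes, 7 of 10 listed arrestin-fold genes were measured. At 120 min 1 of them rose and 0 fell, against 13.4% of all probe sets called. In si-miR-20a 0 were higher and 2 lower, against 24.5%, and in si-miR-671 0 and 1, against 14.5%. ARRB1, the gene of beta-arrestin 1, was lower in si-miR-20a by 0.99 ± 0.09 (adjusted p = 1.8e-06) and in si-miR-671 by 0.77 ± 0.09 (3.2e-05), and its EGF difference at 120 min was -0.27 ± 0.10 (0.11). VPS26C, a subunit of the retriever complex, rose by 0.20 ± 0.05 at 120 min (adjusted p = 0.01), and VPS26B, of retromer, was lower in si-miR-20a (-0.27 ± 0.06, 0.006). ARRDC5 and ARRB2 were not analysed here.

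The lists were also read without the si-miR-671 arrays in the fit, a setting chosen after seeing the data. Of 27 genes called at 120 min in the 85 measured, 22 passed again, and those lost were SRXN1 (0.23, adjusted p = 0.094), MSRA, VPS26C (0.24, 0.065), RICTOR and SLC2A12. At 60 min 7 of 8 passed again, HK2 being lost, and at 30 min 2 of 3, SLC2A3 being lost (0.27, adjusted p = 0.58). For si-miR-671 against control over 0 and 30 min alone, which uses fewer arrays, 5 of 24 passed again and 1, SLC2A3, changed sign (0.22 over all times and -0.02 over 0 and 30 min). The list genes named above that did not pass there were GLRX, GLRX2, MXI1, MXD4, NDFIP2 and WWP1.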

How the data were processed

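Expression was measured in 24 RNA samples of MCF10A cells on Human Gene 1.0 ST arrays (Affymetrix). The authors deposited log2 values, 1 per probe set, made with Affymetrix Expression Console per the submitters' processing notes, which give no version; how probes were summarised and normalized is not given in the sources used here, and the log base was read from the values. They were used as deposited: 33297 probe sets, 0 missing values, and 19460 with exactly 1 gene symbol tested; 1754 with several symbols and 12083 not listed with one were left out. The deposited arrays had nearly equal quartiles (medians 6.56 to 6.57, upper quartiles 8.26 to 8.28), so a shift shared by most genes cannot be seen in them.

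limma 3.58.1 in R 4.3.3 fitted 1 mean per group over all 24 arrays with no replicate block, then eBayes (12 residual and 2.57 prior degrees of freedom), with Benjamini-Hochberg adjustment. Comparisons were EGF times against 0 min, transfections against control, and differences between EGF responses; single values were also tested by 30 exact two-sided permutation tests (unadjusted), whose smallest p is 0.0093 for EGF and 0.0015 for transfections. The smallest exact p is given whenever the compared arrays are fully apart, in the same direction, within every transfection or time, so it restates that separation. The fit was tested on simulated data. Sequences are RefSeq tables of GRCh38.p14, in which all 5 genes matched. Figures used Python 3.11.15 and matplotlib 3.10.9. The number of arrays limits the precision.

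The members and gene lists were chosen with earlier results of these data known. Named genes are the 5 members, up to 4 called genes with the smallest p per list and comparison, the 5 genes most like each member, and cell type markers. Whether the numbers of the replicates pair samples across groups is unknown here, and the main fit used no pairing. Over 66 pairs of groups the correlation of replicate differences ran from -0.57 to 0.55 (median 0.063, 30 above 0.1), which does not settle it. Other settings tried were another normalization, centring, probe-set filters, priors, array weights, a replicate block, fewer arrays in the fit and each array left out.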

Additional observations from a re-analysis of the deposited data

Results flagged for a closer look

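The EGF response at 120 min of TXNIP differed between si-miR-20a and control by 0.86 (unadjusted p = 2.68e-05, adjusted p = 0.063) and between si-miR-671 and control by 0.73 (unadjusted p = 0.000147, adjusted p = 0.13), an estimate of a smaller fall with either oligonucleotide, but neither difference passed after adjustment over all probe sets. The 2 differences share the control arrays. The ARRDC4 response at 120 min differed between si-miR-20a and control by 0.46 (unadjusted p = 0.00657, adjusted p = 0.5). The ARRDC3 response at 30 min differed between si-miR-671 and control by 0.30 (unadjusted p = 0.0434, adjusted p = 1). These 4 were picked out because the limma test of the difference itself had an unadjusted p under 0.05, among 30 such tests on the 5 genes. With 2 arrays a group, no search for a single outlying array within a group was possible.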

How the results depend on the processing

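For the 5 genes, 2150 values under other settings were set beside 140 results: 2065 kept their side of the threshold, 69 of them uncalled values that changed sign, 64 lost a call, 21 gained one and 0 changed sign while called. The difference of the TXNIP response at 120 min, 0.86 for si-miR-20a, passed without the dimmest 25% of probe sets (adjusted p = 0.03), with a trended robust prior (0.0063) and with the replicate block (0.027), and without 1 array ranged from 0.70 to 1.02; that for si-miR-671, 0.73, passed with the trended prior (0.016) and the replicate block (0.041). The replicate block also let the averaged ARRDC4 change at 60 min pass (0.20, adjusted p = 0.029), and TXNIP in si-miR-20a at 0 min (0.027) and ARRDC4 in si-miR-671 at 60 min (0.046); it changed no other call of the 5 genes. ARRDC3 at 30 min averaged did not pass with the si-miR-671 arrays left out of the fit too (0.36, adjusted p = 0.13), a setting chosen after seeing the data that also has fewer samples. Over 0 and 30 min alone, si-miR-671 against control did not pass for ARRDC3 (-0.26, 0.063) or ARRDC4 (-0.19, 0.25); over 60 and 120 min alone ARRDC4 did not pass (-0.20, 0.073) and TXNIP did (0.34, 0.0046). Without 1 array, that ARRDC4 difference ranged from -0.23 to -0.16, and that of ARRDC3 between si-miR-20a and si-miR-671 from -0.15 to -0.056. The causes of these changes were not tested. With only the 4 arrays of a single-time comparison in the fit, 2 of 18 such calls of the 5 genes remained: the TXNIP fall in control at 120 min, and TXNIP in si-miR-20a against control at 120 min. Averaging probe sets of a gene could not change the 5 genes, which have 1 each. Counts of called probe sets moved more, over settings other than leaving out 1 array. The averaged EGF counts of 149, 517 and 2607 at 30, 60 and 120 min ran from 78 to 204, 265 to 744 and 1258 to 2911, that of 120 against 60 min (957) from 452 to 1103, those of si-miR-20a and si-miR-671 against control (4771 and 2820) from 2328 to 5630 and 546 to 3335, and that between them (884) from 219 to 1461. Counts for the difference of responses (7 and 13) ran from 0 to 14 and 0 to 26, and with only 4 arrays in the fit single-time counts fell as far as 0, from 646 for si-miR-20a against control at 0 min and from 1205 at 60 min. Counts in the gene lists moved by at most 2 genes, the si-miR-671 arrays being left out in none of those settings.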
